A study of Schizosaccharomyces pombe with 6 samples.

Results

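The genes described here are 8 antioxidant enzyme genes of the fission yeast *Schizosaccharomyces pombe* and *pap1*, the gene of the transcription factor that controls several of them, 9 of the 6988 loci in the count table. They were taken by their systematic IDs, not by their values. The enzymes are the catalase *ctt1* (SPCC757.07c), the glutathione peroxidase *gpx1* (SPBC32F12.03c), the sulfiredoxin *srx1* (SPBC106.02c), the thioredoxin peroxidase *tpx1* (SPCC576.03c), the thioredoxin reductase *trr1* (SPBC3F6.03), the cytosolic thioredoxin *trx1* (SPAC7D4.07c), the superoxide dismutase *sod1* (SPAC821.10c) and the glutathione S-transferase *gst2* (SPCC965.07c). The *pap1* locus is SPAC1783.07c. Poly(A)+ RNA was measured in 3 cultures of a wild-type h- strain (AS478) and 3 cultures of an h- *siw14*∆::HygMX strain (AS2302), in which a hygromycin resistance marker replaces the gene of the inositol pyrophosphatase Siw14. Each genotype is represented by a single strain. All 6 cultures were harvested in log phase from the rich medium YES at 30°C, and the labels and methods name no added oxidant, so the values are basal levels. The comparison asks how these basal levels differ between cells with and without Siw14.

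Superoxide dismutase turns superoxide into hydrogen peroxide, which catalase, the glutathione peroxidase and the peroxiredoxin Tpx1 then remove. Tpx1 is reduced by the thioredoxin Trx1, Trx1 is reduced by the reductase Trr1 with NADPH, and a Tpx1 whose active cysteine has been oxidized too far is restored by the sulfiredoxin Srx1. Tpx1 also passes the peroxide signal to Pap1, a bZIP factor of the AP-1 family that the exportin Crm1 keeps out of the nucleus in unstressed cells. After oxidation Pap1 stays in the nucleus and activates antioxidant genes, while the MAP kinase Sty1 and its factor Atf1 act on *ctt1* and *gpx1* at stronger stress.

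The 500 bases before each annotated transcript start were searched for letters that these factors are known to bind. They were TTAGTAA and TTACGTAA, the words of AP-1 factors such as Pap1 and the budding yeast Yap1, and TGACGT, the word of Atf1 and its partner Pcr1. Both strands were searched, so that TTACTAA counts as TTAGTAA, and no match overlapped another. At least 1 AP-1 word was found for 6 of the 9 genes (*ctt1*, *gpx1*, *srx1*, *trr1*, *trx1* and *gst2*), against 20% of 5112 protein-coding windows of the same length. By word, TTAGTAA is in 19.5%, TTACGTAA in 0.646% and TGACGT in 8.14% of all windows. The 4 stretches below are shown because they hold the only Atf1 word (*ctt1*) and the only TTACGTAA (*gpx1*) among the 9 genes and the AP-1 words of the 2 enzyme genes whose libraries did not overlap between the genotypes (*trr1* and *gst2*). They run 5′ to 3′ in the direction of the gene, with the word in capitals.
*ctt1*, III:58872-58907, minus strand: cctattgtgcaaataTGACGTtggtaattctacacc
*gpx1*, II:2789684-2789721, minus strand: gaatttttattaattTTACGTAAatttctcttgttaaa
*trr1*, II:4189376-4189412, plus strand: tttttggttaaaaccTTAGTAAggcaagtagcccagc
*gst2*, III:2296211-2296247, minus strand: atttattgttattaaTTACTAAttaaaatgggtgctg

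The word starts 59 bases before the transcript start in *ctt1*, 119 bases before it in *gpx1*, 408 in *trr1* and 127 in *gst2*. Sequences and positions are those of the RefSeq genome of build ASM294v3, while the authors' counts were made on ASM294v2. A match describes these letters only, and binding was not measured. No such word was found in the windows of *tpx1*, *sod1* and *pap1*.

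The RNA of *siw14* itself was at 2014, 2414 and 2377 counts in wild type and at 13, 12 and 14 in *siw14*∆, which matches the labels. Counts in genes ran from 12875286 to 14583056 per library, and edgeR's filter for low counts kept 5774 loci, all 9 genes among them. Counts were scaled with TMM factors to a common library size, and these normalized counts are used below. Wild-type replicate 2 stood apart at these genes. It was the lowest of the 3 wild-type libraries at 8 of the 9 genes, *trr1* being the exception, against 29.4% of all loci. The fold change of each of the 9 genes and the number called lower are therefore given with and without it. Medians, overlaps, levels per length and spreads are given only with it. Replicate 2 was the lowest library of both genotypes at 5 genes (*ctt1*, *gpx1*, *srx1*, *trx1* and *sod1*), against 11.7% of all loci. Wild-type replicate 1 was the highest of its group at 7 genes, and no share of all loci is given for this count. Its TMM factor was 0.864, against 0.976 and 0.984 for wild-type replicates 2 and 3. In the *siw14*∆ libraries the factors were 1.11, 1.03 and 1.05.

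**Figure D1:**
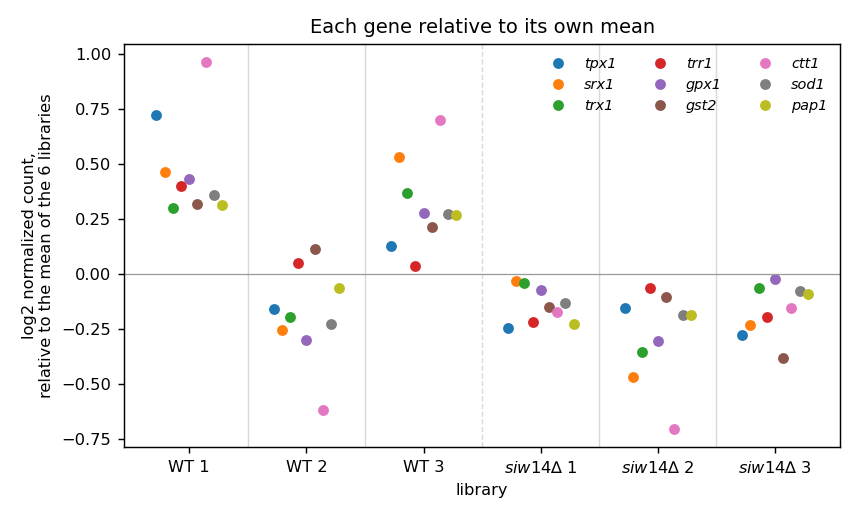
Log2 normalized count of each of the 9 genes (y axis) in each of the 6 libraries (x axis), relative to the mean of that gene over the libraries; each color is a gene. Points of wild-type replicates 1 and 3 lie above 0, whereas wild-type replicate 2 lies inside the *siw14*∆ range for *ctt1*, *gpx1*, *srx1*, *tpx1* and *trx1*.

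All 9 genes had a lower mean in *siw14*∆ than in wild-type cells, with log2 fold changes from −0.82 (*ctt1*) to −0.29 (*sod1*). Of these, *gst2* and *pap1* passed edgeR's quasi-likelihood test (adjusted p of at most 0.05), both lower, and 7 did not pass. Over all loci kept, 4.99% were called lower and 16.7% higher, which are 288 and 964 loci. These numbers were 495 and 903 with DESeq2's size factors, 31 and 1368 with library totals, 705 and 1025 by DESeq2 and 940 and 836 after removal of a GC trend, a smooth curve fitted in each library over exon GC content. None of the 9 genes was called higher, and none had an unadjusted p under 0.05 in that direction by edgeR, limma-voom or DESeq2. At an unadjusted p under 0.05, 6 of the 9 were lower, against 16.2% of all loci. The median log2 fold change was −0.35 over the 9 genes and 0.01 over all loci. The *siw14*∆ libraries lay wholly below the wild-type libraries at 3 genes (*trr1*, *gst2* and *pap1*), against 19.2% of all loci. For 7 of the 9 genes the 95% interval of the fold change lay within 2-fold, the exceptions being *ctt1* and *srx1*. Counts are relative to each library, so that a fall of these RNAs and a rise of others cannot be told apart from counts alone. Each library holds the RNA of a whole culture, so that less of an RNA per cell and fewer cells that carry it cannot be told apart either.

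Without wild-type replicate 2, all 9 genes were called lower by edgeR, against 12.3% of all loci in that fit. That library was singled out because it was low at these same genes. Leaving it out therefore raises their wild-type means, and this count is not separate support for lower levels. Without wild-type replicate 1, 1 gene was called lower (0.825% of all loci), and without wild-type replicate 3, 0 were (0.759%). DESeq2 on all 6 libraries called 5 lower (*tpx1*, *trr1*, *trx1*, *gst2* and *pap1*), against 12.8% of the loci it tested. With library totals as the only scaling, none was called, against 0.537% of all loci, and after removal of an abundance trend, fitted likewise over the mean count, none was called, against 0.0173% of all loci. At an unadjusted p under 0.05, these last 2 fits put 1 and 2 of the 9 genes lower, against 3.19% and 13% of all loci. Library totals move the median log2 fold change of all loci to 0.18 and that of the 9 genes to −0.17. After removal of an abundance trend these medians were −0.01 and −0.19. No alternative turned the direction of any of the 9 genes.

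**Figure D2:**
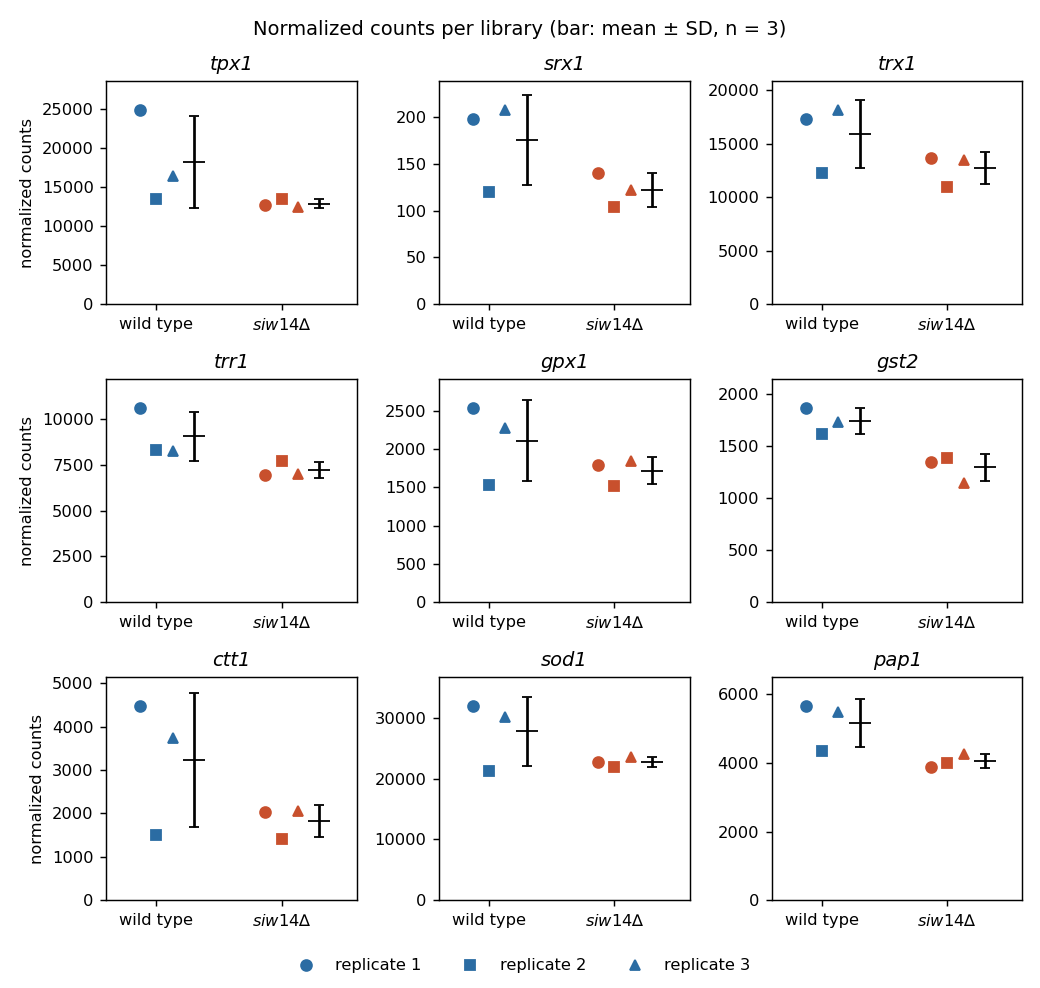
Normalized counts (y axis, starting at 0) of the 9 genes in the wild-type and *siw14*∆ libraries (x axis); symbols mark the replicate number and the bar is the mean ± SD (n = 3). The *siw14*∆ points lie below every wild-type point for *trr1*, *gst2* and *pap1*, and wild-type replicate 2 is the lowest wild-type library in every panel except *trr1*.

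In the thioredoxin cycle, the peroxidase gene *tpx1* stood at 24916, 13499 and 16452 normalized counts in wild-type replicates 1 to 3 and at 12702, 13557 and 12426 in *siw14*∆ replicates 1 to 3. The *siw14*∆ libraries were close to each other, and only *siw14*∆ replicate 2 reached the level of wild-type replicate 2. The means were 18289 ± 5926 and 12895 ± 590 (SD, n = 3 each), which gave a log2 fold change of −0.50 ± 0.18 (SE, edgeR adjusted p = 0.0684). It was −0.69 (adjusted p = 0.00974) without wild-type replicate 2 but −0.20 (adjusted p = 0.188) without wild-type replicate 1, the library with the highest *tpx1* count. After removal of a GC trend it was −0.24 (adjusted p = 0.176 by edgeR), the exons of *tpx1* having the highest GC content of the 9 genes (46.3%).

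The sulfiredoxin gene *srx1*, whose product repairs overoxidized Tpx1, stood at 199, 120 and 208 normalized counts in wild type and at 141, 104 and 122 in *siw14*∆. Wild-type replicate 2 thus fell within the range of the *siw14*∆ libraries, while wild-type replicates 1 and 3 lay above it. The log2 fold change was −0.52 ± 0.22 (SE, 95% confidence interval −1.01 to −0.03, edgeR adjusted p = 0.105), and −0.73 (adjusted p = 0.0154) without wild-type replicate 2. After removal of a GC trend it was −0.80 (adjusted p = 0.0264 by edgeR), after removal of an abundance trend −0.86 (adjusted p = 0.0720), and with library totals −0.33 (adjusted p = 0.354). In the ASM294v3 annotation 91.1% of the exon bases of *srx1* lie opposite a noncoding locus that is not in the count table. The authors' libraries were strand-specific, but the sources used here do not give the strand setting of the counting.

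The thioredoxin gene *trx1*, whose product reduces Tpx1, stood at 17345, 12300 and 18158 normalized counts in wild type and at 13672, 11003 and 13472 in *siw14*∆. Replicate 2 was the lowest library of each genotype, and wild-type replicate 2 fell within the *siw14*∆ range. The means were 15935 ± 3174 and 12716 ± 1487 (SD, n = 3 each), and the log2 fold change was −0.33 ± 0.15 (SE, edgeR adjusted p = 0.127). It was −0.48 (adjusted p = 0.0155) without wild-type replicate 2, and −0.58 (adjusted p = 0.0226) after removal of a GC trend. It was −0.18 (adjusted p = 0.425) without wild-type replicate 3, −0.14 (adjusted p = 0.530) with library totals and −0.08 (adjusted p = 0.741) after removal of an abundance trend.

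The reductase gene *trr1*, whose product passes electrons from NADPH to Trx1, stood at 10621, 8340 and 8276 normalized counts in wild type and at 6935, 7709 and 7028 in *siw14*∆. Here wild-type replicate 1 stood above the others, and every *siw14*∆ library lay below every wild-type library. The log2 fold change was −0.33 ± 0.12 (SE, edgeR adjusted p = 0.0610), or −20.4%. It was −0.39 (adjusted p = 0.0302) without wild-type replicate 2, −0.18 (adjusted p = 0.115) without wild-type replicate 1 and −0.10 (adjusted p = 0.375) after removal of an abundance trend. With DESeq2's size factors in edgeR the gene passed at −0.36 (adjusted p = 0.0471). The noncoding locus SPNCRNA.1678 lies opposite 49.3% of the *trr1* exon bases and itself had 35 to 79 counts per library.

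The peroxidase gene *gpx1*, named for glutathione though its product is known in fission yeast to be reduced by thioredoxin, stood at 2533, 1525 and 2272 normalized counts in wild type and at 1784, 1520 and 1848 in *siw14*∆. Replicate 2 was the lowest in each genotype, and the 2 replicates numbered 2 were nearly equal. The log2 fold change was −0.30 ± 0.16 (SE, edgeR adjusted p = 0.184). It was −0.49 (adjusted p = 0.0104) without wild-type replicate 2, but −0.13 (adjusted p = 0.626) without wild-type replicate 1 and −0.11 (adjusted p = 0.667) with library totals.

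The glutathione S-transferase gene *gst2*, whose product joins glutathione to reactive compounds, stood at 1861, 1611 and 1728 normalized counts in wild type and at 1343, 1386 and 1146 in *siw14*∆. The groups did not overlap, and the wild-type libraries spread less here (a coefficient of variation of 7.21%) than at any other of the 9 genes. The RNA fell from 1733 ± 125 to 1292 ± 128 (SD, n = 3 each), which gave a log2 fold change of −0.42 ± 0.10 (SE, edgeR adjusted p = 0.0250). The RNA thus fell by 25.4%, with a 95% confidence interval of −0.64 to −0.20 on the log2 scale. With wild-type replicate 2 left out the estimate moved to −0.48 (adjusted p = 0.00950). It was −0.70 (adjusted p = 0.0198) after removal of a GC trend, −0.36 (adjusted p = 0.0695) after removal of an abundance trend and −0.24 with library totals, where it did not pass. Among the fits without one library the call was lost without wild-type replicate 3 (−0.39, adjusted p = 0.0534), without *siw14*∆ replicate 1 (−0.45, adjusted p = 0.0508), without *siw14*∆ replicate 2 (−0.47, adjusted p = 0.0981) and without *siw14*∆ replicate 3 (−0.35, adjusted p = 0.0957). All exon bases of *gst2* lie opposite the noncoding locus SPNCRNA.7703 of the ASM294v3 annotation, which is not in the count table. The authors' libraries were strand-specific, so the RNA of the opposite strands would be mixed only if the counting ignored strand.

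The catalase gene *ctt1*, whose product breaks down hydrogen peroxide and whose upstream window holds the Atf1 word shown above, had the widest spread. It stood at 4473, 1495 and 3725 normalized counts in wild type and at 2034, 1406 and 2058 in *siw14*∆. Wild-type replicate 2 held 36.5% of the mean of the other wild-type libraries, lower than *siw14*∆ replicates 1 and 3. The means were 3231 ± 1549 and 1833 ± 369 (SD, n = 3 each), which gave a log2 fold change of −0.82 ± 0.31 (SE, 95% confidence interval −1.50 to −0.14, edgeR adjusted p = 0.0737). It was −1.16 (adjusted p = 0.00290) without wild-type replicate 2 and −0.49 (adjusted p = 0.323) without wild-type replicate 1.

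The superoxide dismutase gene *sod1*, the most abundant RNA of the 9, stood at 31996, 21323 and 30123 normalized counts in wild type and at 22781, 21960 and 23668 in *siw14*∆. Wild-type replicate 2 was the lowest of all 6 libraries, and wild-type replicates 1 and 3 were the highest. The log2 fold change was −0.29 ± 0.15 (SE, edgeR adjusted p = 0.160), and −0.45 (adjusted p = 0.0137) without wild-type replicate 2. The estimate shrank to −0.16 (adjusted p = 0.446) without wild-type replicate 1, to −0.10 (adjusted p = 0.586) with library totals, and to −0.02 after removal of an abundance trend, where it did not pass.

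The *pap1* gene stood at 5659, 4360 and 5486 normalized counts in wild type and at 3892, 4001 and 4274 in *siw14*∆. The groups did not overlap, though *siw14*∆ replicate 3 and wild-type replicate 2 came close. The RNA fell from 5168 ± 705 to 4055 ± 197 (SD, n = 3 each), which gave a log2 fold change of −0.35 ± 0.11 (SE, 95% confidence interval −0.59 to −0.11, edgeR adjusted p = 0.0454). In linear terms it fell by 21.5%. It widened to −0.46 (adjusted p = 0.00729) with wild-type replicate 2 left out. The call was lost without any one of the other 5 libraries, at −0.26 to −0.39 (adjusted p = 0.107 to 0.137 by edgeR), with library totals (−0.17, adjusted p = 0.226) and after removal of an abundance trend (−0.15, adjusted p = 0.277). The counts measure *pap1* RNA, not the place or the oxidation of the protein through which Pap1 is controlled.

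**Figure D3:**
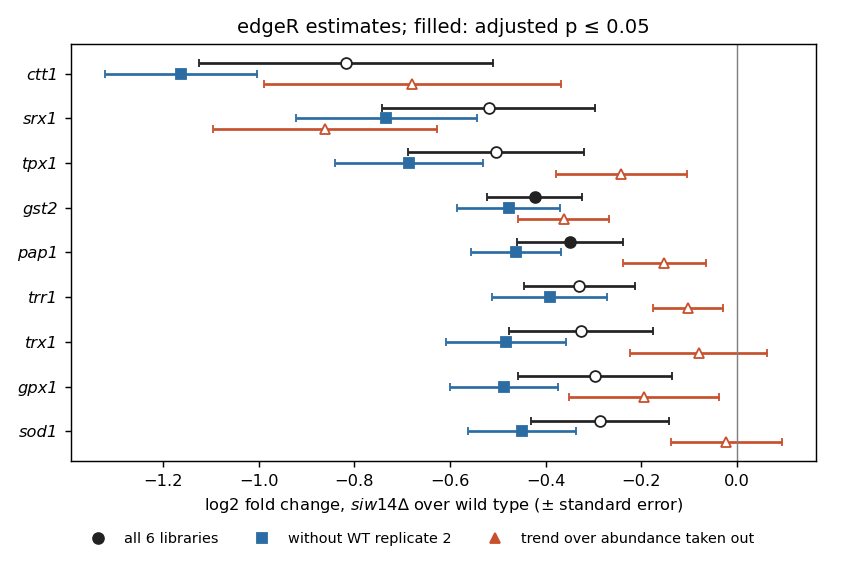
Log2 ratio of *siw14*∆ to wild-type levels (x axis, ± standard error) of the 9 genes by edgeR with all 6 libraries, without wild-type replicate 2, and after removal of an abundance trend; filled symbols have an adjusted p of at most 0.05. All estimates lie below 0. Without wild-type replicate 2 every gene is filled, and after the removal none is.

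Per exon length, the wild-type RPKM levels had the order *sod1* (2655 ± 544), *trx1* (2137 ± 426), *tpx1* (1712 ± 555), *trr1* (489 ± 72.0), *gpx1* (212 ± 52.5), *pap1* (143 ± 19.5), *ctt1* (108 ± 51.7), *gst2* (84.8 ± 6.11) and *srx1* (16.8 ± 4.59; SD, n = 3 each). The superoxide dismutase, the thioredoxin and its peroxidase were thus above the 97th percentile of the protein-coding genes kept, whereas the sulfiredoxin was at the 32.9th. In wild type, the ranges of *sod1* and *trx1*, *trx1* and *tpx1*, *gpx1* and *pap1*, *pap1* and *ctt1*, and *ctt1* and *gst2* overlapped. In *siw14*∆ cells only those of *ctt1* and *gst2* overlapped, at 61.2 ± 12.3 and 63.2 ± 6.28 RPKM. Within each of the 6 libraries the order was the same, except that *tpx1* stood just above *trx1* in wild-type replicate 1 and *gst2* above *ctt1* in replicate 2 of both genotypes. Lengths are those of the ASM294v3 annotation.

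**Figure D4:**
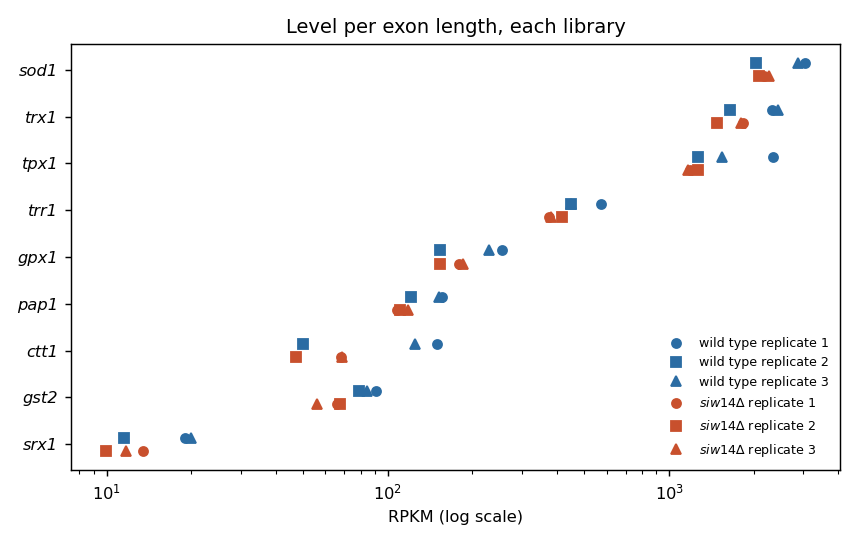
RPKM (x axis, log scale) of each of the 9 genes in each library, ordered by the wild-type mean; colors are genotypes and symbols replicate numbers. The levels run from 9.95 RPKM for *srx1* in *siw14*∆ replicate 2 to 3054 for *sod1* in wild-type replicate 1, and the *ctt1* points of both replicates numbered 2 lie to the left of the *gst2* points of the same libraries.

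The wild-type replicates varied more than the *siw14*∆ replicates at 8 of the 9 genes, *gst2* being the exception, against 73.6% of all loci. The wild-type coefficient of variation was 47.9% for *ctt1* and 32.4% for *tpx1*, where the median over loci within 2-fold of the same mean count was 9.30% and 10.5%. In the *siw14*∆ libraries *ctt1* had 20.2% (median of like loci 5.76%) and *tpx1* 4.57% (6.50%). Among the 9 genes, *gpx1* and *sod1* had the most similar profiles over the 6 libraries (a root mean square distance of 0.07 between their centered log2 CPM), and *ctt1* and *trr1* the least (0.52). Among the 5765 other loci, the profile of *gst2* was nearest to the mitochondrial ribosomal protein gene *mrpl10* (0.05), the phosphatase gene *ppa1* (0.07) and the noncoding SPNCRNA.788 (0.07). SPNCRNA.788 stood at only 8.1 to 14.3 normalized counts per library, so its profile is imprecise. That of *pap1* was nearest to the transcription factor gene *zip1* (0.01), the histidinol dehydrogenase gene *his2* (0.02) and SPNCRNA.979 (0.03). That of *trr1* was nearest to the ribosomal protein gene *rpl1702* (0.01), the actin patch gene *lsb4* (0.02) and the purine synthesis gene *ade10* (0.02).

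The genes around Pap1 moved in both directions. Of the 4 listed regulators and partners other than *pap1*, 2 rose and 2 fell by edgeR, against 16.7% and 4.99% of all loci. The Ran-binding protein gene *hba1*, whose product is needed for the export of Pap1 from the nucleus, stood at 240, 304 and 313 normalized counts in wild type and at 442, 486 and 420 in *siw14*∆. Every *siw14*∆ library was above every wild-type library, and the log2 fold change was 0.65 ± 0.14 (SE, edgeR adjusted p = 0.0235). The coactivator gene *oxs1*, whose product works with Pap1, stood at 283, 392 and 310 normalized counts in wild type and at 468, 641 and 528 in *siw14*∆, also without overlap. Its log2 fold change was 0.73 ± 0.16 (SE, edgeR adjusted p = 0.0235).

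The response regulator gene *prr1*, whose product acts with Pap1 on shared targets, stood at 6431, 5457 and 5206 normalized counts in wild type and at 4386, 4741 and 4503 in *siw14*∆. The groups did not overlap, and the log2 fold change was −0.33 ± 0.10 (SE, edgeR adjusted p = 0.0440). The exportin gene *crm1* stood at 3413, 3228 and 3301 normalized counts in wild type and at 2818, 2669 and 2803 in *siw14*∆, again without overlap. Its log2 fold change was −0.26 ± 0.08 (SE, edgeR adjusted p = 0.0434). After removal of an abundance trend none of these 4 genes passed by edgeR, at 0.34 for *hba1*, 0.46 for *oxs1*, −0.12 for *prr1* and −0.10 for *crm1* (adjusted p = 0.0955, 0.0872, 0.285 and 0.358). With library totals only, *prr1* and *crm1* did not pass either. The calls of *hba1* and *oxs1* were lost without *siw14*∆ replicate 2 (0.60 and 0.61, adjusted p = 0.0981 each by edgeR) and without *siw14*∆ replicate 3 (0.69 and 0.75, adjusted p = 0.0865 each). In these fits, and after removal of an abundance trend, 0 of all loci were called higher. The calls of *prr1* and *crm1* held without wild-type replicate 2 (−0.36 and −0.28, adjusted p = 0.0285 and 0.0364 by edgeR). They were lost without any one of the other 5 libraries, at −0.35 to −0.21 and −0.28 to −0.22.

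Of 5 listed Pap1 targets outside the 9 genes, 1 fell (against 4.99% of all loci) and 4 did not pass. It was the quinone oxidoreductase gene *obr1*, at 19633, 14472 and 18653 normalized counts in wild type and 12742, 12547 and 13394 in *siw14*∆. All *siw14*∆ libraries lay below wild-type replicate 2, the lowest of its group, and the log2 fold change was −0.45 ± 0.12 (SE, edgeR adjusted p = 0.0329). It was −0.20 (adjusted p = 0.184) after removal of an abundance trend, and when single libraries were left out the call held only without wild-type replicate 2 (−0.57, adjusted p = 0.00542 by edgeR). With library totals (−0.26, adjusted p = 0.0741) and after removal of a GC trend (−0.26, adjusted p = 0.0578) it did not pass either. The whole of *obr1* lies opposite the counted noncoding locus SPNCRNA.793, which itself had 161 to 222 counts per library. The transporter genes *bfr1*, *pmd1* and *caf5* and the thioredoxin gene *trx2* were at −0.09, −0.02, 0.21 and 0.24 on the log2 scale of the fold change.

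Of 9 genes on the Sty1-Atf1 route, 1 fell (against 4.99% of all loci), the MAP kinase kinase gene *wis1*, and 8 did not pass. The *wis1* RNA stood at 1740, 1538 and 1291 normalized counts in wild type and at 1101, 1288 and 1148 in *siw14*∆, which gave a log2 fold change of −0.37 ± 0.12 (SE, edgeR adjusted p = 0.0453). The groups did not overlap, but wild-type replicate 3 and *siw14*∆ replicate 2 were nearly equal. Of the fits without one library, the call held only without wild-type replicate 3 (−0.44, adjusted p = 0.0406 by edgeR). It was also lost with library totals (−0.19, adjusted p = 0.194), after removal of an abundance trend (−0.33, adjusted p = 0.0977) and by limma-voom (−0.36, adjusted p = 0.0505). The factor gene *atf1*, named after its values were seen, stood at 3991, 1699 and 3014 normalized counts in wild type and at 2034, 1462 and 2379 in *siw14*∆. Replicate 2 was the lowest library of each genotype, as at *ctt1*. The log2 fold change of *atf1* was −0.57 ± 0.26 (SE, edgeR adjusted p = 0.121), −0.84 (adjusted p = 0.00867) without wild-type replicate 2 and −0.25 (adjusted p = 0.525) without wild-type replicate 1. The median log2 fold change over the Sty1-Atf1 list was −0.22.

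Elsewhere in the redox system none of the listed genes outside the 9 passed the main edgeR test. This held for 12 glutathione genes (median log2 fold change −0.05), the 2 methionine sulfoxide reductases, 4 further genes of the thioredoxin and peroxiredoxin list (median −0.01), *trx2* among them, and the 2 further genes of superoxide removal. The mitochondrial superoxide dismutase gene *sod2* had a log2 fold change of −0.30 ± 0.11 (SE, edgeR adjusted p = 0.0722), close to that of *sod1*, and its libraries did not overlap between the genotypes. The *sod2* RNA was called lower in 3 of 15 alternatives, DESeq2 among them (−0.33, adjusted p = 0.0324). With library totals and after removal of an abundance trend it was −0.11 each (adjusted p = 0.432 and 0.435 by edgeR). The glutaredoxin gene *grx1*, named after its values were seen, stood at 5394, 3210 and 5140 normalized counts in wild type and at 3152, 2969 and 3543 in *siw14*∆. Wild-type replicate 2 again fell within the *siw14*∆ range. Its log2 fold change was −0.51 ± 0.17 (SE, edgeR adjusted p = 0.0512), −0.71 (adjusted p = 0.00332) without wild-type replicate 2 and −0.32 (adjusted p = 0.198) after removal of an abundance trend. The *grx1* RNA was called lower in 7 of 15 alternatives, DESeq2 among them (−0.54, adjusted p = 0.00869). The genes of glutathione synthesis, *gcs1* and *gsa1*, were at 0.20 each and did not pass. Over the 37 listed genes outside the 9, 2 rose, 4 fell and 31 did not pass, with a median log2 fold change of −0.09. Over all loci kept, 16.7% were called higher and 4.99% lower.

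**Figure D5:**
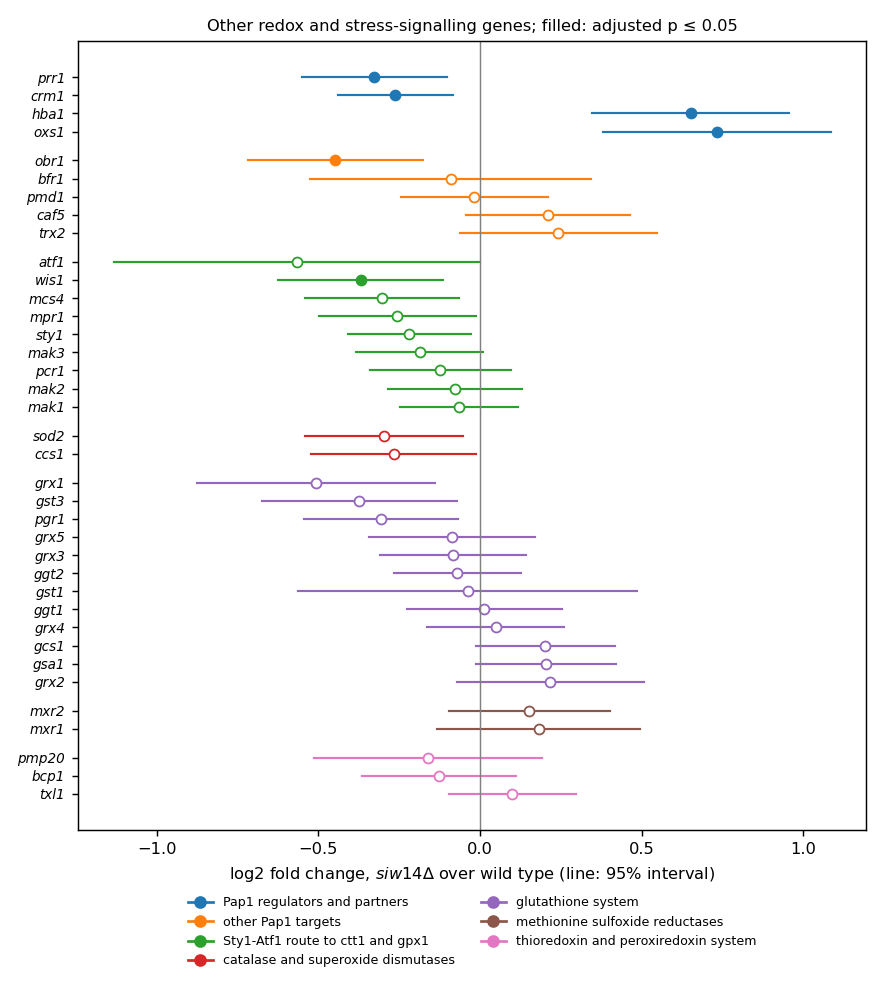
Log2 ratio of *siw14*∆ to wild-type levels (x axis, line: 95% interval) of the 37 listed genes outside the 9, colored by list; filled points have an adjusted p of at most 0.05 by edgeR. The filled points are *hba1* and *oxs1* above 0 and *prr1*, *crm1*, *obr1* and *wis1* below 0.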

How the data were processed

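Libraries of poly(A)+ RNA came from 3 cultures per genotype. The authors mapped paired-end reads to build ASM294v2 with HISAT2 2.1.0 and counted reads over exons with HTSeq 0.10.0, and the deposited table holds these raw counts per locus. A further 5 rows of it name no gene, are filled only in the *siw14*∆ columns (31.6% to 35.8% of their counts) and were left out. The authors' table of fold changes, p-values and strain means was not used.

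From the counts, filterByExpr, TMM, glmQLFit and glmQLFTest of edgeR 4.0.16 (R 4.3.3) were run on all loci, with Benjamini-Hochberg adjustment over the 5774 kept and a threshold of 0.05. Standard errors are the log2 fold change over the root of the F statistic. The script was tested on simulated data. Alternatives were DESeq2 1.42.0, limma-voom (limma 3.58.1), other scalings and filters, a replicate block, each library left out, and loess trends (span 0.3) over abundance or exon GC content as offsets. Symbols, lengths and sequences come from RefSeq ASM294v3, which matched 6836 of the 6988 IDs. The genes, the lists and the alternatives were chosen with earlier results of these data known. The text names the 9 genes, up to 4 called genes per list (or the one with the smallest p) and, for the 3 of the 9 with the smallest p, the 3 loci with the nearest profile. The labels call the replicates biological but do not describe how cultures were started. The p-values set the genotype difference against the spread between these libraries, and variation between strains of a genotype was not sampled.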

Additional observations from a re-analysis of the deposited data

How the results depend on the processing

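Over 15 alternatives for each of the 9 genes, 135 values in all, no direction turned, 15 calls were gained and 14 were lost. The number of the 9 genes called lower was 2 in the main test (against 4.99% of all loci). It was 5 by DESeq2 (12.8%) and 4 after removal of a GC trend (16.3%). It was 0 with library totals only (0.537%) and 0 after removal of an abundance trend (0.0173%). At an edgeR adjusted p of 0.01 it was 0. By the study's criteria (2-fold and 100 normalized counts), applied here to the edgeR fit, it was also 0. No share of all loci is given for these counts, so they cannot be set beside other loci. Leaving out one library gave 0 to 9. Of the wild-type libraries, leaving out replicate 1 gave 1, replicate 2 gave 9 and replicate 3 gave 0, and any *siw14*∆ library gave 0 (1 locus of all was then called lower, against 48, 717 and 44 without wild-type replicates 1, 2 and 3). In the 4 fits without one library that gave 0, edgeR put 3 to 4 genes lower at an unadjusted p under 0.05. The other settings gave 2 or 3 (against 2.7% to 8.57% of all loci), and none called any of the 9 genes higher. Over all loci, replicates with the same number did not deviate together for every number (correlations of −0.26, 0.18 and −0.16 for numbers 1, 2 and 3). Among the 9 genes, a replicate block lowered the standard errors of *ctt1* (from 0.31 to 0.17), *gpx1*, *srx1* and *trx1*. It left that of *tpx1* at 0.18 and raised those of *trr1*, *sod1*, *gst2* and *pap1*. With the replicate block the count stayed 2, as *ctt1* passed (−0.70, adjusted p = 0.0230 by edgeR) and *pap1* did not (−0.34, adjusted p = 0.0642), and over all loci 1007 were called higher and 156 lower. The *mxr2* fold change, 0.15 on the log2 scale and not called, was −0.093 after removal of the abundance trend and −0.030 after removal of the GC trend. The cause of these differences was not tested. The lowest of these RNAs, *srx1*, rests on 114 to 199 counts per library, which limits its precision.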
